A study of Mus musculus with 6 samples.

Results

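Ribosomal RNA features in eCLIP libraries of tagged mouse Gtsf1 are described here, taken as every feature that the authors' annotation assigned to the class rRNA. They numbered 751 of the 1753368 features listed with a read in any library. By their names, 255 were LSU-rRNA_Hsa repeats (named after the large subunit RNA), 36 SSU-rRNA_Hsa repeats (named after the small subunit RNA), 413 numbered 5S repeats, 43 n-R5s genes (5S), n-R5-8s1 (5.8S), mtrRNA-Rnr1, mtrRNA-Rnr2 and CT010467.1. No name was that of the long precursor or of its spacers, so the large cytoplasmic RNAs are represented by the LSU and SSU repeats and n-R5-8s1. In all libraries the RNA came from P19 cells, a mouse embryonal carcinoma line, transiently transfected with mouse Gtsf1 (also called Asterix) carrying a C-terminal TEV-Strep tag under the EF-1alpha promoter. The protein was therefore a tagged copy from a transfected plasmid. The 4 groups were crosslinked input (cells irradiated with ultraviolet light, lysate treated with RNase I, n = 2 libraries), crosslinked pull-down (the same kind of lysate captured on MagStrep type 3 XT beads, n = 2), non-crosslinked input (n = 1) and non-crosslinked pull-down (n = 1). The labels do not say whether replicates came from separate cultures, so p-values measure the spread between these libraries, which may be technical.

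Most RNA in a growing cell is ribosomal. RNA polymerase I transcribes 1 long precursor that is cut into the 18S RNA of the small subunit and the 5.8S and 28S RNAs of the large subunit. RNA polymerase III transcribes the 5S RNA of the large subunit from separate genes, which in mouse lie mainly in a tandem array, while many dispersed 5S-like copies are pseudogenes. Mitochondria make their own small subunit RNA (Rnr1, 12S) and large subunit RNA (Rnr2, 16S) from the mitochondrial genome. Because these RNAs are abundant and their copies nearly identical, they form much of the background in purifications of RNA-binding proteins, and a read can match many of their annotated copies.

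The libraries held 13168593 to 18418166 reads, of which 6.99% to 14.4% had no annotation. Levels are the authors' RPM, which scales each library to all of its reads, and 1 read was worth 0.0543 to 0.0759 RPM. Of 9 P19 markers, 7 had more than 3 reads in every input, Dppa4 and Zfp42 were at or near 0, and the summed level was 103 to 130 RPM in the inputs. Fibroblast, germ cell and blood markers summed to 0.0458 to 1.09 RPM in the inputs and neuronal markers (Tubb3, Map2, Rbfox3) to 5.72 to 8.15 RPM. Gtsf1 itself had 91.3 and 88.6 RPM in the crosslinked inputs, 206 and 450 RPM in the crosslinked pull-downs, then, without crosslinking, 70.9 RPM in the input and 56.0 RPM in the pull-down. Replicates differed by more than sampling noise. The chi-square divided by its degrees of freedom was 5.96 for the input pair and 6.84 for the pull-down pair over all tested features, and 352 and 306 over the rRNA features.

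Ribosomal RNA made up more than 58% of the reads in every library, pulled down or not. Its share of all reads was 59.3% and 60.6% in the crosslinked inputs against 58.8% and 58.2% in the crosslinked pull-downs, then, without crosslinking, 69.7% in the input and 70.1% in the pull-down. The widest 95% Wilson interval of these shares was 0.0495 percentage points, which covers counting error only. The ratio of pull-down to input was 0.976 with crosslinking (58.5% ± 0.386 against 59.9% ± 0.955, SD, n = 2 each) and 1.01 without. When reads without annotation were left out of the denominator the crosslinked ratio became 1.04 (67.7% ± 0.451 against 65.1% ± 1.97), so the direction depended on the denominator. With 2 libraries against 2, the smallest p of a two-sided exact permutation test is 0.33, and the shares gave p = 0.33 on both denominators. The non-crosslinked libraries had higher shares than all 4 crosslinked ones, for which there is no replicate check.

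These reads sat in few features. SSU-rRNA_Hsa-18 alone held 34.0% and 33.4% of the rRNA reads in the crosslinked inputs against 34.1% and 33.1% in the crosslinked pull-downs, then, without crosslinking, 28.9% in the input and 26.0% in the pull-down. The 10 features with most reads held 66.3% to 68.2% in the 6 libraries, and 44 to 58 features were enough for 90%. The test took in the 262 features that averaged 1 RPM or more in the 4 crosslinked libraries, and these held at least 99.98% of the rRNA reads of each library. At the edge of that filter, 5S-420 stood just outside with 0.994 RPM and SSU-rRNA_Hsa-24 just inside with 1.01 RPM. The copies are not independent measurements, since a read with several matching copies was split among them. Of the 751 features 580 had distinct counts, and of the 262 tested 246 did.

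By name, the LSU and SSU repeats together held most of the rRNA reads. LSU repeats held 50.4% and 51.9% of the rRNA reads in the crosslinked inputs against 55.0% and 57.1% in the crosslinked pull-downs, then, without crosslinking, 54.8% in the input and 64.9% in the pull-down. SSU repeats held 38.5% and 38.0% in the crosslinked inputs against 39.4% and 37.7% in the crosslinked pull-downs, then, without crosslinking, 33.3% in the input and 30.0% in the pull-down. The 5S repeats were the third group, with 9.14% and 8.04% in the crosslinked inputs, and 10.1% in the input made without crosslinking. They held only 3.27% and 3.20% in the crosslinked pull-downs, against 3.49% in the one without crosslinking. The widest Wilson interval of these shares was 0.0639 points. Of the 8 name groups compared by an exact permutation test of their share, 6 gave p = 0.33 (0.444 after Benjamini-Hochberg adjustment), the smallest this design allows. SSU and CT010467.1 gave an exact permutation p of 1.

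**Figure D1:**
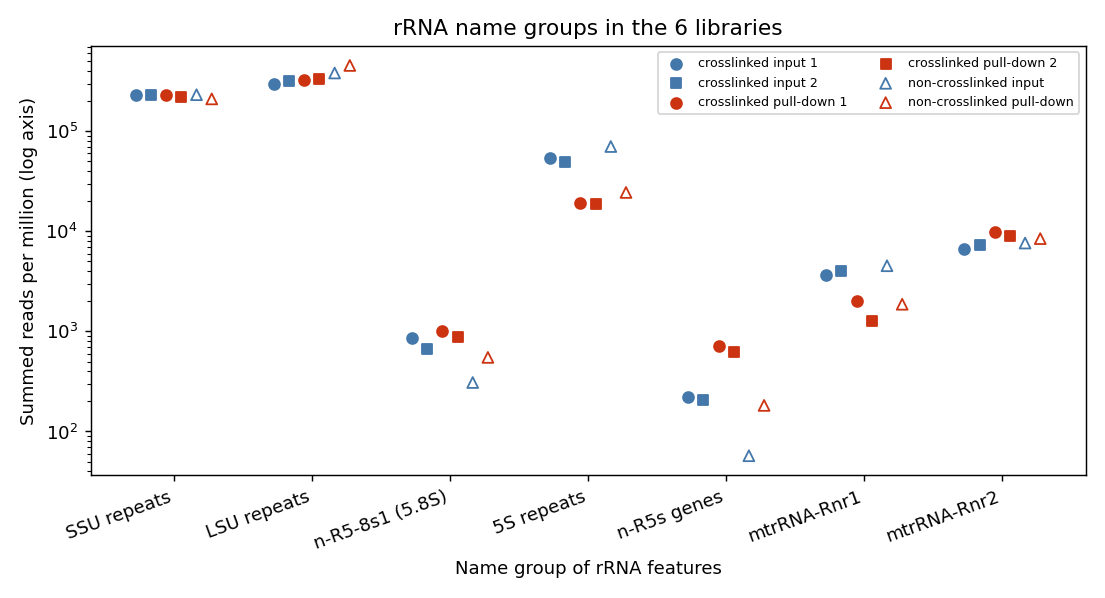
Summed RPM of each rRNA name group (log axis) in the 6 libraries, 1 point per library, with inputs in blue, pull-downs in red and non-crosslinked libraries as open triangles. The 5S repeats and mtrRNA-Rnr1 were lower in all 3 pull-downs than in all 3 inputs, while within each crosslinking state the n-R5s genes were higher in the pull-downs.

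The 2 kinds of 5S feature went opposite ways. The 5S repeats summed to 54151 and 48745 RPM in the crosslinked inputs, 19206 and 18609 RPM in the crosslinked pull-downs, then, without crosslinking, 70373 RPM in the input and 24464 RPM in the pull-down. Every pull-down was therefore below every input, at 0.368 times the input with crosslinking (0.355 and 0.382 in the same-numbered pairs) and 0.348 times without. The edgeR log2 ratio of the sum was -1.35 (SE 0.61, edgeR adjusted p = 0.262), which did not pass the threshold of 0.05. The n-R5s genes summed to 223 and 205 RPM in the crosslinked inputs, 707 and 620 RPM in the crosslinked pull-downs, then, without crosslinking, 57.2 RPM in the input and 182 RPM in the pull-down. They were 3.10 times the input with crosslinking and 3.18 times without, and they were the only name group that edgeR called, with a log2 ratio of 1.72 (SE 0.26, adjusted p = 0.00966). In that fit of summed groups, 6.07% of all rows were called higher and 3.23% lower (9.3% in either direction). Its fitted dispersion at the abundance of the sums was 0.0495 to 0.0589 against a median of 0.00281 over all rows. The call of the n-R5s sum was lost without crosslinked input 1 (adjusted p = 0.0695) or crosslinked input 2 (0.0639), and DESeq2 called the 5S repeats lower (log2 ratio -1.14, adjusted p = 0.00821).

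The n-R5s genes held very few reads compared with the 5S repeats. The ratio of 5S repeat reads to n-R5s reads was 242 and 238 in the crosslinked inputs against 27.2 and 30.0 in the crosslinked pull-downs, then, without crosslinking, 1230 in the input and 134 in the pull-down. Pull-downs lay below inputs in both crosslinking states, and the crosslinked libraries lay below the non-crosslinked ones of the same kind. The exact permutation p for the 2 crosslinked groups was 0.33. This ratio, like the other ratios taken within a library, was chosen after the values were seen.

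Nearly all 5S repeat reads came from 1 run of numbers. The 51 repeats numbered 846 to 896 held 99.0% of the 5S repeat reads of the crosslinked inputs, and 30 of them lay within 1% of each other, between 1586.2 and 1586.7 RPM in crosslinked input 1. Across all rRNA features, 137 of 262 tested were called higher and 46 lower, where 6.41% of all 39872 tested features were called higher and 3.47% lower (9.88% in either direction). Of the 46 lower calls, 42 were in this block, which is 42 of 43 among the 5S repeats. With no filter on level, where 942601 features were tested, edgeR called no rRNA feature in either direction (lowest adjusted p = 0.132), and at an unadjusted p under 0.05 there were 303 higher and 65 lower. Because the members of the block share reads, these are not 42 independent results. The block summed to 53618 and 48204 RPM in the crosslinked inputs, 18082 and 17610 RPM in the crosslinked pull-downs, then, without crosslinking, 70022 RPM in the input and 23598 RPM in the pull-down. That gave 0.351 times the input with crosslinking and 0.337 times without.

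The repeat with the highest level was 5S-870. It had 1619 and 1448 RPM in the crosslinked inputs, 495 and 483 RPM in the crosslinked pull-downs, then, without crosslinking, 2209 RPM in the input and 716 RPM in the pull-down. It fell in the crosslinked pull-downs by 1.56 on the log2 scale (SE 0.19, edgeR adjusted p = 0.00322), and 5S-862 and 5S-894, which share its reads, gave -1.56 and -1.55. The lowest ratios belonged to 5S-883 and 5S-896, which had equal rounded counts in every library. Each had 412 and 371 RPM in the crosslinked inputs, 114 and 123 RPM in the crosslinked pull-downs, then, without crosslinking, 144 RPM in the input and 47 RPM in the pull-down (log2 ratio -1.63, SE 0.19, adjusted p = 0.00258). 5S-882 was close to them, at -1.59 (SE 0.19, adjusted p = 0.00304). The lower calls in the block ranged from -1.63 to -0.88. These 3 repeats differed from 5S-870 in one respect, since their level in the non-crosslinked input was below that in the crosslinked inputs, while that of 5S-870 was above.

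Within the same block, 8 repeats were called higher. One of them, 5S-875, had 67.8 and 62.3 RPM in the crosslinked inputs, 206 and 184 RPM in the crosslinked pull-downs, then, without crosslinking, 18.3 RPM in the input and 55.3 RPM in the pull-down. These are almost the values of the n-R5s genes with most reads. 5S-855 was the only tested repeat of the block that was not called (log2 ratio 0.73, adjusted p = 0.121), and it was called without crosslinked pull-down 1 (0.0137). The 5S repeats outside the block were a minor part of the reads and went the other way. The 362 of them summed to 532 and 541 RPM in the crosslinked inputs, 1124 and 999 RPM in the crosslinked pull-downs, then, without crosslinking, 350 RPM in the input and 865 RPM in the pull-down. That is 1.98 times the input with crosslinking and 2.47 times without. Of the 36 tested, 27 were called higher (6.41% of all tested features) and 1, 5S-964, lower (3.47% of all), at -1.33 (SE 0.17, edgeR adjusted p = 0.00462). Of the 27, 13 had passed the filter through their pull-downs alone.

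**Figure D2:**
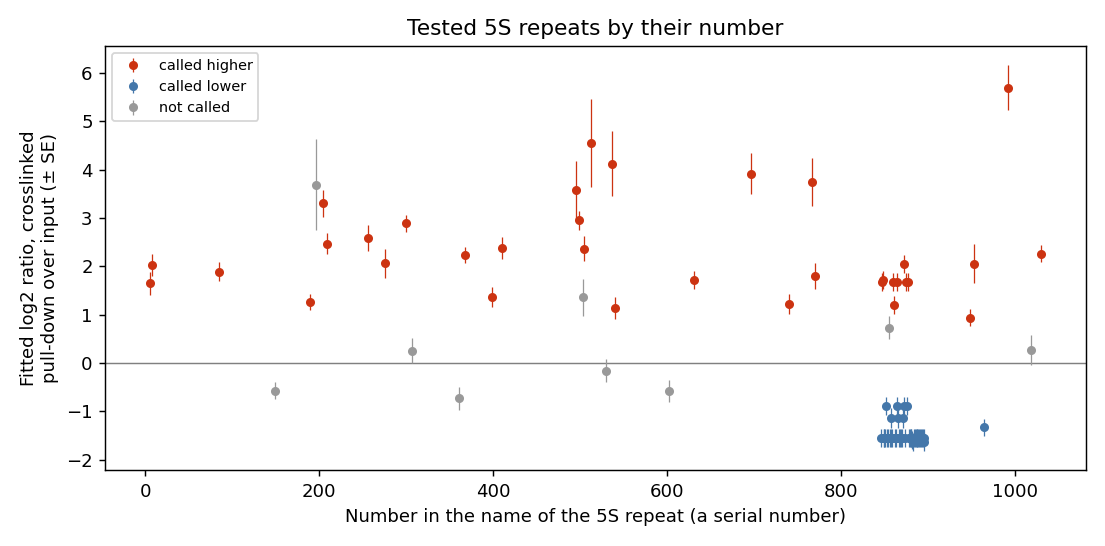
Fitted log2 ratio of crosslinked pull-down over input (edgeR, error bars are the standard error) for the 87 tested 5S repeats against the serial number in their names. The lower calls gather between 846 and 896, apart from 5S-964, and the higher calls are spread over the numbers, 8 of them inside that range.

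All 9 tested n-R5s genes were called higher (6.41% of all tested features), and 3 of them, with input means under 1 RPM, had passed the filter through their pull-downs alone. Read shares were concentrated in 3 of them, n-R5s114, n-R5s119 and n-R5s131, which RefSeq annotates as rRNA genes of 119 bases on chromosome 8 (GRCm38.p6, the mm10 build) at 123562595-123562713, 123571001-123571119 and 123591371-123591489. n-R5s114 had 67.6 and 62.1 RPM in the crosslinked inputs, 206 and 184 RPM in the crosslinked pull-downs, then, without crosslinking, 18.2 RPM in the input and 55.3 RPM in the pull-down. Both crosslinked pull-downs were above both inputs, with a log2 ratio of 1.68 (SE 0.18, edgeR adjusted p = 0.00212). n-R5s119 and n-R5s131 gave 1.68 with the same adjusted p, and the 3 share their reads. n-R5s127, at 123584535-123584653 on the same chromosome, is a pseudogene in RefSeq. It had 14.8 and 12.9 RPM in the crosslinked inputs, 61.0 and 50.2 RPM in the crosslinked pull-downs, then, without crosslinking, 0.530 RPM in the input and 7.30 RPM in the pull-down (log2 ratio 2.09, adjusted p = 0.000917). RefSeq listed 8 of the 43 n-R5s features, 3 as rRNA and 5 as pseudogenes, and 4 of the 8 lay in this array on chromosome 8.

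The n-R5s genes and the 5S repeats overlapped as measurements. Of the 9 tested n-R5s genes, 4 had a 5S repeat whose level was within 1% in every library, and 6 had one within 10%. n-R5s114, n-R5s119 and n-R5s131 each matched 2 repeats to within 1%, 5S-847 and 5S-875, which had equal levels and differed from the genes by at most 0.297%. n-R5s90 and 5S-953 had equal counts. The opposite directions of the 2 name groups therefore also ran inside the 5S repeats themselves. The annotation behind either set of names and the strand used in counting are not given in the sources used here. n-R5s161 had the largest fitted log2 ratio of the n-R5s genes, at 4.43 (SE 0.47), from 77 pull-down reads against 4 input reads with crosslinking, a ratio of 21.6 with a counting interval of 8.11 to 81.4.

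The 5.8S gene n-R5-8s1 was higher in the crosslinked libraries than in the non-crosslinked library of the same fraction. It had 854 and 663 RPM in the crosslinked inputs, 1017 and 889 RPM in the crosslinked pull-downs, then, without crosslinking, 309 RPM in the input and 550 RPM in the pull-down. Pull-down was 1.26 times input with crosslinking and 1.78 times without, and the crosslinked difference was not called (log2 ratio 0.42, SE 0.21, edgeR adjusted p = 0.300). The mean crosslinked input was 2.46 times the non-crosslinked input and the mean crosslinked pull-down 1.73 times the non-crosslinked pull-down. For the n-R5s genes the corresponding ratios were 3.75 and 3.64, and for the 5S repeats 0.731 and 0.773. With 1 non-crosslinked library per fraction, a difference between crosslinking states cannot be told apart from a difference between single libraries.

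The mitochondrial rRNAs differed in direction, but only the fall of mtrRNA-Rnr1 was called as a feature, and not in every alternative. mtrRNA-Rnr1, the 12S RNA (RefSeq mt-Rnr1, MT 70-1024, 955 bases), had 3661 and 3997 RPM in the crosslinked inputs, 2007 and 1274 RPM in the crosslinked pull-downs, then, without crosslinking, 4528 RPM in the input and 1867 RPM in the pull-down. Every pull-down was below every input, at 0.428 times the input with crosslinking and 0.412 times without. Tested as a feature it fell by 1.14 on the log2 scale (SE 0.26, edgeR adjusted p = 0.0450). In the fit of summed groups the same counts gave an adjusted p of 0.155. The call of the feature was lost with TMM factors (adjusted p = 0.101), DESeq2 (0.101) and a replicate block (0.0738). It was also lost with library sizes without rRNA (0.0563) and with no filter (0.538). Without crosslinked pull-down 2 the log2 ratio was -0.86. mtrRNA-Rnr2, the 16S RNA (RefSeq mt-Rnr2, MT 1094-2675, 1582 bases), had 6663 and 7328 RPM in the crosslinked inputs, 9836 and 9066 RPM in the crosslinked pull-downs, then, without crosslinking, 7636 RPM in the input and 8454 RPM in the pull-down. Pull-down was 1.35 times input with crosslinking and 1.11 times without, and the log2 ratio of 0.52 (SE 0.19) had an adjusted p of 0.173. It passed without crosslinked input 2 (0.0450) and with a filter at 5 RPM (0.0448).

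Set against each other inside a library, the pair gave a ratio that was higher in the pull-downs than in the inputs. Reads of Rnr2 per read of Rnr1 were 1.82 and 1.83 in the crosslinked inputs against 4.90 and 7.12 in the crosslinked pull-downs, then, without crosslinking, 1.69 in the input and 4.53 in the pull-down. Per base of RefSeq length, the ratio was 1.10 and 1.11 in the crosslinked inputs, against 1.02 in the input made without crosslinking. It was 2.96 and 4.30 in the crosslinked pull-downs, against 2.73 in the one without crosslinking. All 3 pull-downs were above all 3 inputs, and the exact permutation p over the crosslinked libraries was 0.33. The ratio of LSU to SSU reads differed less, with 1.31 and 1.37 in the crosslinked inputs against 1.40 and 1.51 in the crosslinked pull-downs, then, without crosslinking, 1.65 in the input and 2.16 in the pull-down.

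**Figure D3:**
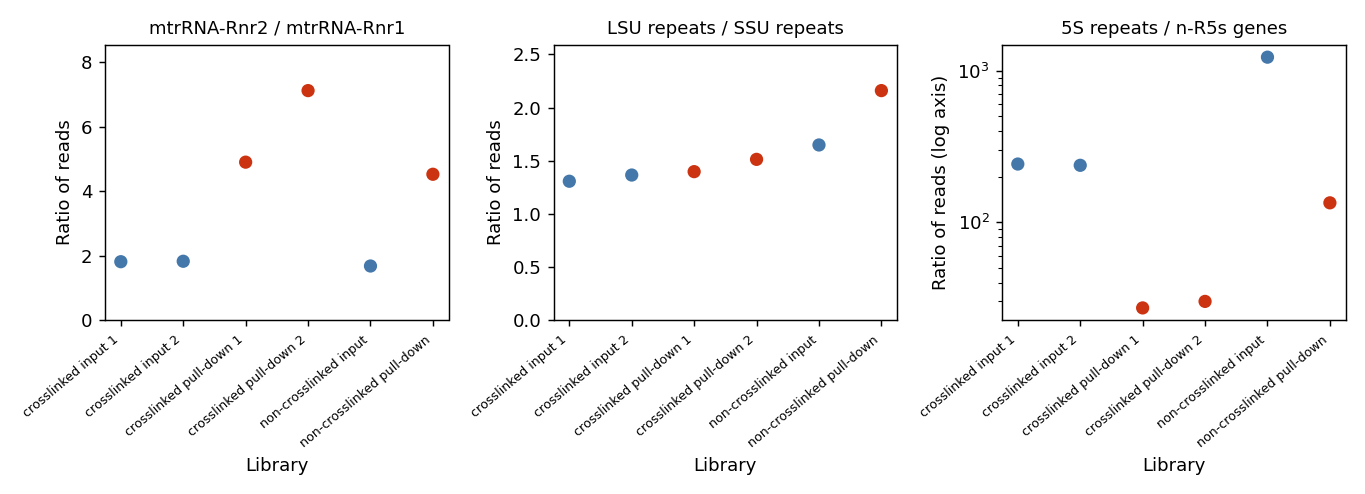
Ratios of reads between rRNA name groups within each of the 6 libraries, 1 point per library, with inputs in blue and pull-downs in red; the 5S panel has a log axis. Rnr2 over Rnr1 was 1.69 to 1.83 in the inputs and 4.53 to 7.12 in the pull-downs, and 5S repeats over n-R5s genes was lower in each pull-down than in the input of the same crosslinking state.

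Summed, the SSU and LSU repeats did not pass the test. SSU repeats had 228442 and 230459 RPM in the crosslinked inputs, 231465 and 219586 RPM in the crosslinked pull-downs, then, without crosslinking, 231848 RPM in the input and 210515 RPM in the pull-down (log2 ratio 0.07, SE 0.94, edgeR adjusted p = 0.974). LSU repeats had 298731 and 314830 RPM in the crosslinked inputs, 323556 and 332295 RPM in the crosslinked pull-downs, then, without crosslinking, 382187 RPM in the input and 454529 RPM in the pull-down (log2 ratio 0.19, SE 1.01, adjusted p = 0.932). Pull-down over input was 0.983 for SSU and 1.07 for LSU with crosslinking, and 0.908 and 1.19 without. With standard errors near 1 on the log2 scale, this fit cannot show a difference of this size for either sum.

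None of the 3 SSU repeats with most reads was called. SSU-rRNA_Hsa-18, the largest feature of all, had 201391 and 202235 RPM in the crosslinked inputs, 200398 and 192697 RPM in the crosslinked pull-downs, then, without crosslinking, 201532 RPM in the input and 182323 RPM in the pull-down. Its log2 ratio was 0.05 (SE 0.19, edgeR adjusted p = 0.892). SSU-rRNA_Hsa-32 had 17465 and 18619 RPM in the crosslinked inputs against 17393 and 14771 RPM in the crosslinked pull-downs (-0.08, SE 0.20). SSU-rRNA_Hsa-15 had 3208 and 1995 RPM against 2064 and 1833 RPM (-0.32, SE 0.26), and it stood higher without crosslinking, at 8545 RPM in the input and 4648 RPM in the pull-down.

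LSU-rRNA_Hsa-59, the largest LSU repeat, had 55456 and 51942 RPM in the crosslinked inputs, 61888 and 61486 RPM in the crosslinked pull-downs, then, without crosslinking, 67493 RPM in the input and 87784 RPM in the pull-down. All pull-downs were above the inputs of their own state, and the log2 ratio of 0.29 (SE 0.19) had an edgeR adjusted p of 0.423. LSU-rRNA_Hsa-230 had 26231 and 27302 RPM in the crosslinked inputs against 21959 and 21618 RPM in the crosslinked pull-downs, but without crosslinking 40869 RPM in the input against 47669 RPM in the pull-down. Its difference was thus negative with crosslinking (log2 ratio -0.21, SE 0.19) and positive without, and the interaction was -0.53 (SE 0.29, adjusted p = 0.442). LSU-rRNA_Hsa-145 overlapped between groups, with 24073 and 23187 RPM against 17827 and 23576 RPM (-0.10, SE 0.22).

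Of 136 tested LSU repeats, 2 were called lower, where 3.47% of all tested features were. They are named here because of their small number. LSU-rRNA_Hsa-196 had 11518 and 11353 RPM in the crosslinked inputs, 4884 and 4544 RPM in the crosslinked pull-downs, then, without crosslinking, 13218 RPM in the input and 6514 RPM in the pull-down (log2 ratio -1.19, SE 0.19, edgeR adjusted p = 0.0111). LSU-rRNA_Hsa-34 had 2717 and 3299 RPM in the crosslinked inputs, 1312 and 1298 RPM in the crosslinked pull-downs, then, without crosslinking, 3239 RPM in the input and 3195 RPM in the pull-down (-1.12, SE 0.20, adjusted p = 0.0196). It was the only feature called lower whose difference without crosslinking on the log2(RPM + 1) scale was above -1, at -0.02. Its interaction was -1.20 (adjusted p = 0.335). The call of LSU-rRNA_Hsa-34 was lost with DESeq2 (adjusted p = 0.0836), TMM factors (0.0663) and without crosslinked pull-down 1 (0.0647) or 2 (0.0689), and that of LSU-rRNA_Hsa-196 without crosslinked pull-down 2 (0.0581).

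Higher calls were frequent among repeats with fewer reads. The ranges of level below were set by the mean RPM over all crosslinked libraries, inputs and pull-downs together. Of 136 tested LSU repeats 72 were called higher and of 27 tested SSU repeats 21, where 6.41% of all tested features were called higher and 3.47% lower. Among rRNA features at 1 to 10 RPM, 52 of 60 were called higher and 0 lower, against 5.85% and 3.05% of the tested features at that level that are not rRNA. At 10 to 100 RPM, 38 were higher and 5 lower of 53 (others: 9.82% and 7.36%). At 100 to 1000 RPM, 34 were higher and 36 lower of 89 (others: 16.2% and 29.1%). At 1000 RPM and above, 13 were higher and 5 lower of 60, against 2 and 2 of the 12 others. The filter bears on the low end, since 30 of the 262 features had an input mean under 1 RPM and passed through their pull-downs, and 28 of these were called higher. No feature passed through its inputs alone. Among the 232 with both means at or above 1 RPM, 109 were higher and 46 lower.

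The called features were therefore a small part of the rRNA reads. The 137 higher features held 4.29% and 4.57% of the rRNA reads in the crosslinked inputs against 11.9% and 11.1% in the crosslinked pull-downs. Without crosslinking they held 2.38% in the input and 7.21% in the pull-down. The 46 lower features held 12.0% and 10.9% in the crosslinked inputs against 4.18% and 3.99% in the crosslinked pull-downs, and 13% and 4.89% in the non-crosslinked input and pull-down. The 79 features that were not called held 83.7% to 87.9% of the rRNA reads in every library. Taken as means over all 6 libraries, their median level was 1268 RPM, against 23.2 RPM for the higher and 1135 RPM for the lower features. These means differ from the crosslinked means used for the levels above, so a feature can fall in another range.

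**Figure D4:**
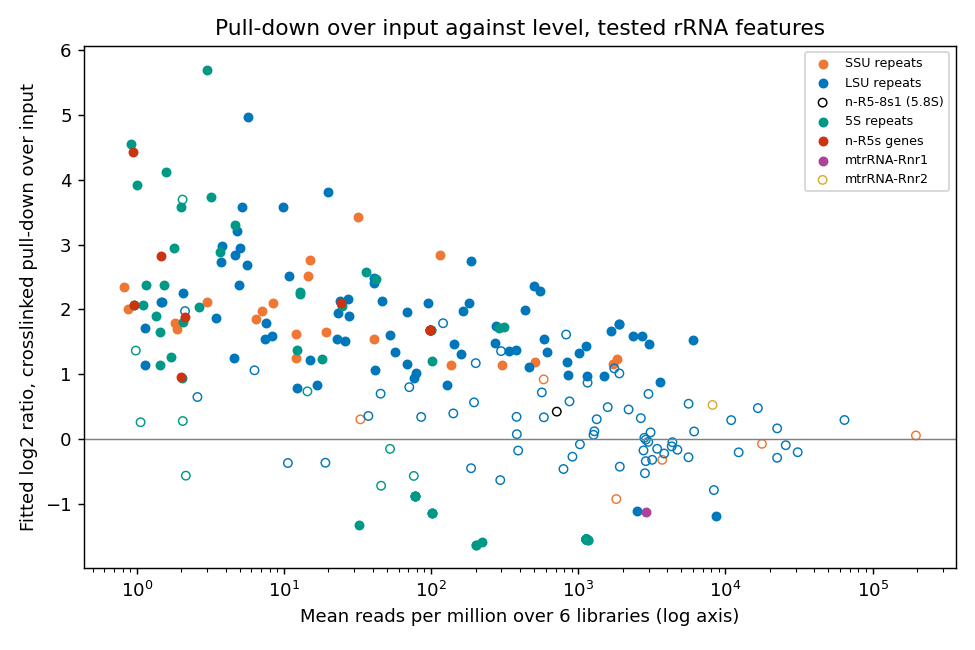
Fitted log2 ratio of crosslinked pull-down over input (edgeR) against the mean level over the 6 libraries (log axis) for the 262 tested rRNA features, coloured by name group; filled points were called and open points were not. Points at 1 to 10 RPM lie mostly above 0, the features with most reads lie close to 0 as open points.

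Some abundant repeats were called higher, and they are named after their values were seen. LSU-rRNA_Hsa-371 had 4165 and 3498 RPM in the crosslinked inputs, 10459 and 10150 RPM in the crosslinked pull-downs, then, without crosslinking, 1807 RPM in the input and 5788 RPM in the pull-down (log2 ratio 1.52, SE 0.20, edgeR adjusted p = 0.00478). The repeat named SSU-rRNA_Hsa without a number had 1494 and 1526 RPM in the crosslinked inputs, 3510 and 3157 RPM in the crosslinked pull-downs, then, without crosslinking, 248 RPM in the input and 1102 RPM in the pull-down (1.23, SE 0.19, adjusted p = 0.00951). Pull-downs were above inputs in both crosslinking states for both repeats.

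The 5 largest higher ratios by the naming rule came from features nearly absent from the inputs. 5S-992 had 2.5 and 1.5 reads in the crosslinked inputs against 117 and 69.1 reads in the crosslinked pull-downs, a ratio of 52.2 in RPM with a counting interval of 20.1 to 194. Without crosslinking it had no input reads and 79.1 pull-down reads. LSU-rRNA_Hsa-12 had 3 and 7.50 reads in the crosslinked inputs against 162 and 134 in the crosslinked pull-downs (ratio 33.2, 17.8 to 70.1). Without crosslinking it had 3 input reads against 192 pull-down reads (68.8, 23.2 to 336). The others were n-R5s161, described above, 5S-512 (ratio 35.9, 9.55 to 303) and 5S-537 (14.9, 7.28 to 35.4). All 5 had input means under 1 RPM and passed the filter through their pull-downs alone, so a difference in this direction was fixed by the filter and no test is read from them. Their edgeR log2 ratios ran from 4.13 to 5.70, but those of limma on the log2(RPM + 1) scale from 1.40 to 2.99. Leaving out 1 crosslinked library moved the edgeR value of 5S-512 between 3.49 (without crosslinked pull-down 1) and 5.14 (without crosslinked pull-down 2), and that of LSU-rRNA_Hsa-12 between 4.47 (without crosslinked input 1) and 5.79 (without crosslinked input 2). Without crosslinked pull-down 1, 5S-537 went from 4.13 to 3.34.

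CT010467.1 was below the filter, with 1 to 10 reads in each library, and was not tested.

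Pull-down over input spread more widely over the rRNA features than over the other tested features, in both crosslinking states and at each level. Levels are again means over the 4 crosslinked libraries. Copies that share reads enter this spread separately, so it is not a spread of independent signals. Of the 89 rRNA features at 100 to 1000 RPM, 44 were 5S repeats, with a median of -1.64 with crosslinking. On the log2(RPM + 1) scale, which understates changes at low levels, the 262 features had a median of 0.89 with crosslinking, an interquartile range (IQR) of 1.85 and extremes of -1.71 and 3.40. The same-numbered pairs gave medians of 1.01 and 0.66. Without crosslinking the median was 0.99, the IQR 2.39 and the extremes -1.79 and 4.27. Over the 39610 tested features that are not rRNA the median was -0.20 with an IQR of 0.27 with crosslinking, and -0.41 with an IQR of 0.47 without. Those features mostly lay at low levels, 37331 of them at 1 to 10 RPM against 60 rRNA features. By level, the crosslinked IQR of rRNA features was 0.83 at 1 to 10 RPM, 1.30 at 10 to 100 RPM, 3.00 at 100 to 1000 RPM and 1.14 from 1000 RPM, against 0.26, 0.34, 1.89 and 0.09 for the others, of which only 12 reached the last range. Without crosslinking these were 1.62, 1.80, 3.36 and 1.14 against 0.45, 0.75, 1.86 and 0.18. Both crosslinked pull-downs were above both inputs for 168 of the 262 (10.8% of all tested features) and below both for 68 (57.7% of all). The 262 include 30 features with input means under 1 RPM that passed the filter through their pull-downs, which fixed their direction. The crosslinked medians above include them too.

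The 2 states resembled each other feature by feature. Across the 262 features, which share libraries and reads and are not replicates, the crosslinked and non-crosslinked log2 ratios had a Pearson correlation of 0.898, against 0.942 between the crosslinked pairs. It was lower within the SSU repeats, at 0.639 (0.881 between pairs). Within the LSU repeats it was 0.855 (0.884) and within the 5S repeats 0.961 (0.977). Of the 137 features called higher, 135 were also above 0 without crosslinking (15.7% of all tested features), and 106 reached a log2 ratio of at least 1 (5.26% of all). Their median log2 ratio was 1.48 with crosslinking and 1.95 without. The exceptions were n-R5s88 and 5S-948, each at -0.21 without crosslinking. Their calls were lost with DESeq2 (adjusted p = 0.144 and 0.152) and without crosslinked pull-down 1 (0.0547 and 0.0638), and that of 5S-948 without crosslinked input 1 (0.0575). All 46 features called lower were also below 0 without crosslinking, as were 84.3% of all tested features, with medians of -1.64 with and -1.62 without crosslinking.

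The medians of the 2 states are given here by name group, with no test of the difference between groups. LSU repeats had a median of 0.92 with crosslinking (IQR 1.47) and 1.63 without (IQR 1.98). SSU repeats had 1.07 with (IQR 0.61) and 2.08 without (IQR 2.12). 5S repeats had -0.83 with (IQR 3.04) and -1.46 without (IQR 2.61), a wide range because the block and the other repeats lay on opposite sides of 0. n-R5s genes had 1.57 with and 0.99 without. The non-crosslinked ratio exceeded both crosslinked pairs in 136 of 262 features (51.9%, against 16% of all tested features), 104 of them LSU repeats. Both pairs exceeded it in 57 (21.8%, against 65.1% of all), 29 of them 5S repeats.

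**Figure D5:**
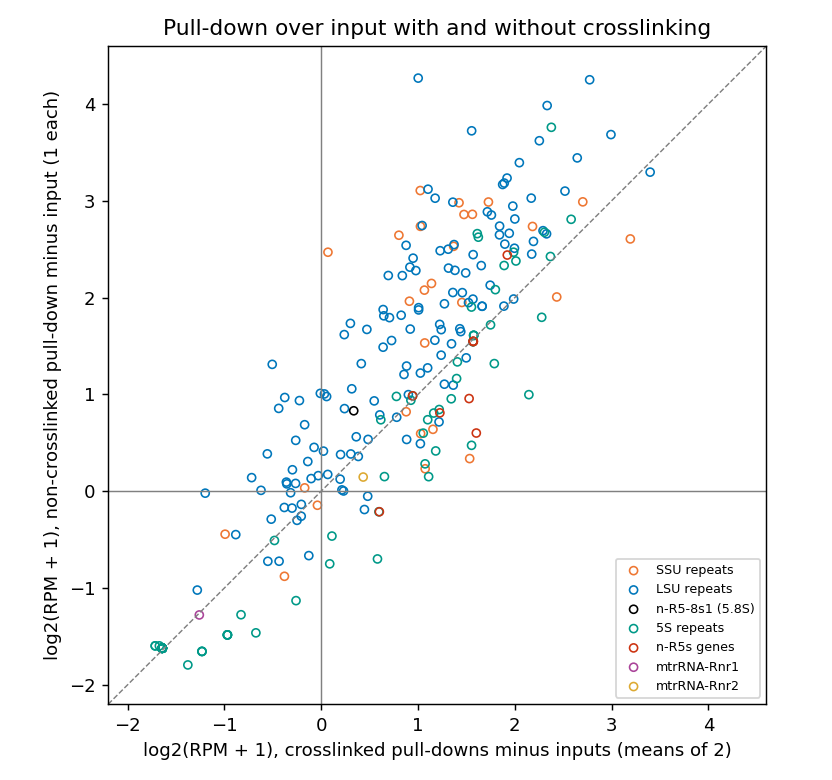
Pull-down minus input on the log2(RPM + 1) scale for the 262 tested rRNA features, with crosslinking (means of 2 libraries, horizontal) and without (1 library each, vertical), coloured by name group; the dashed line marks equal values. The 46 features called lower, mostly 5S repeats, have medians of -1.64 and -1.62 on the axes, LSU-rRNA_Hsa-34 lies apart from them at -1.20 and -0.02, and most LSU repeats lie above the line.

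The difference between the 2 states was tested as an interaction in edgeR over all 6 libraries, in which the lone non-crosslinked libraries are assumed to vary like the others. None of the 262 rRNA features and none of all 39872 features was called (0%), and the lowest adjusted p was 0.335. At an unadjusted p under 0.05, the crosslinked ratio was smaller for 70 rRNA features and larger for 5, and 13.6% of all tested features passed in either direction. The median interaction was -0.47 over rRNA features and 0.56 over all tested features. With TMM factors these medians were -1.05 and -0.01, so the level of the interaction depends on the scaling, while the rRNA features stayed below the rest by about the same amount. On simulated data with 200 features changed by 2 (log2), this test recovered only 75. It thus missed most interactions of that size, and the absence of calls does not show that none is present. Without crosslinked input 1, 8 rRNA features were called with a negative interaction, among 128 of all tested features (0.321%). Without crosslinked input 2 there was 1, among 10 of all (0.0251%).

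For the name groups the interaction was 0.10 for SSU (SE 1.21), -0.17 for LSU (SE 1.31), -0.52 for 5.8S (SE 0.49), 0.07 for the 5S repeats (SE 0.88), -0.05 for the n-R5s genes (SE 0.42), 0.04 for Rnr1 (SE 0.64) and 0.27 for Rnr2 (SE 0.67). All edgeR adjusted p-values were between 0.623 and 0.989. The signs for SSU, the 5S repeats, Rnr1 and Rnr2 turned with TMM factors.

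The lowest unadjusted interaction p among rRNA features belonged to LSU-rRNA_Hsa-84, named after its values were seen. It had 1796 and 1247 RPM in the crosslinked inputs, 3510 and 2564 RPM in the crosslinked pull-downs, then, without crosslinking, 68.7 RPM in the input and 1341 RPM in the pull-down. Its pull-down minus input in log2(RPM + 1) was 1.00 with crosslinking and 4.27 without, and the interaction was -3.30 (SE 0.45, edgeR adjusted p = 0.335). Its value in the non-crosslinked input stood apart from the other 5 libraries. Across the 262 features, 78 were at least 2-fold higher (log2 difference of 1) in the crosslinked inputs than in the non-crosslinked input, which is 29.8% against 2.49% of all tested features. Another 2 were lower by as much (0.763% against 0.0652% of all). Between the pull-downs, 52 were higher, a share of 19.8% that is near the 21.3% of all tested features, and 9 were lower (3.44% against 0.411%).

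Processing of the rRNA precursor needs small nucleolar RNAs, which were read in other annotation classes of the same libraries. Of 22 features of U3, U8, U13, U14, U22, U17, E2 and the RNase MRP RNA, all were tested, and 10 of them are U3 copies. E3 (Snora63) was also on the list but is not among these 22. Of the 22, 2 were called higher and 2 lower, which is 9.09% in each direction against 6.41% and 3.47% of all tested features, and their median log2 ratio was -0.08 (all features: -0.21). Snord118, the U8 RNA needed for 5.8S and 28S processing, had 163 and 144 RPM in the crosslinked inputs, 658 and 791 RPM in the crosslinked pull-downs, then, without crosslinking, 109 RPM in the input and 356 RPM in the pull-down (log2 ratio 2.33, SE 0.21, edgeR adjusted p = 0.000917). Snord14a, a U14 RNA that acts in 18S maturation, was higher by 0.96 (adjusted p = 0.0497) and was called in 6 of 14 alternatives, with adjusted p from 0.00523 to 0.728. Snora73a and Snora73b, the U17 RNAs of 18S processing, fell by 2.54 and 2.61 (adjusted p = 0.0214 and 0.0205), with -3.44 and -3.55 without crosslinked pull-down 2 and -1.99 and -2.05 without crosslinked pull-down 1. The other U17 feature, Rnu73b, stood at 0.42 (adjusted p = 0.336) and was not called. Snora73a had 408 and 509 RPM in the crosslinked inputs against 40.0 and 107 RPM in the crosslinked pull-downs, with 191 and 24.2 RPM in the non-crosslinked input and pull-down. U3, the main processing snoRNA, gave values of both signs, and none of its 10 copies was called. The 2 Rnu3a copies stood at 0.74 (edgeR adjusted p = 0.0859 and 0.0874), and the 8 Rnu3b copies at -0.19 to -0.18 (adjusted p from 0.699 to 0.712).

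The genes of rRNA synthesis and processing, read as exons, introns and pre-mRNA, had calls in both directions. Of 15 genes, 13 had tested features, 92 in all, with a median log2 ratio of -0.15. Of these, 3 were called higher (3.26%, against 6.41% of all tested features) and 8 lower (8.70%, against 3.47%). Nop56, a core protein of the C/D snoRNPs, accounted for 2 of the higher and 5 of the lower. Npm1, a nucleolar chaperone, had 33 tested features with a median log2 ratio of -0.07.

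The authors' deposited table of enrichment values, whose formula is not stated, listed 245 of the 751 rRNA features with a median ratio of 1.62, and 152 were above 1 (62.0%). Over all 216085 features in the authors' deposited table the median was 1.37 and 74.6% were above 1, so the median was higher and the share above 1 lower for rRNA. By name group the medians in the authors' deposited table were 3.63 for SSU repeats, 1.90 for LSU repeats, 0.843 for 5S repeats and 3.29 for n-R5s genes, of which 8 of 8 were above 1. The authors' deposited table gave 0.344 for 5S-870, 3.29 for n-R5s114, 0.536 for mtrRNA-Rnr1, 1.88 for mtrRNA-Rnr2 and 0.627 for n-R5-8s1. The value for n-R5-8s1 was below 1, where pull-down over input in RPM was 1.26 with crosslinking and 1.78 without. The other features in this list lay on the same side of 1 as their RPM ratios.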

How the data were processed

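Per the labels' protocols, RNA of transfected P19 cells was sequenced from Strep pull-downs and inputs, with or without ultraviolet crosslinking, in 6 libraries. The submitters' processing notes name bcl2fastq 2.19, STAR 2.5.2b, bedtools 2.29.0 and mm10, with no role or order. The deposited expected counts per feature hold fractions, since a read with several matching features was divided among them, and the authors' RPM values are these counts scaled to all reads of the library. A deposited ratio per feature has no stated formula. The handling of PCR duplicates, the annotation and the strand are not given in the sources used here.

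Counts were rounded and the 2 crosslinked pull-downs compared with the 2 crosslinked inputs by edgeR 4.0.16 quasi-likelihood (R 4.3.3), with annotated reads as library sizes and features of at least 1 RPM on average. RPM ratios use all reads, so fitted ratios stand about 0.1 (log2) above them. Benjamini-Hochberg adjustment covered all tested features, with a threshold of 0.05. The interaction used all 6 libraries. On simulated data 196 of 200 features changed by 2 (log2) were recovered, with 7 false among 203 calls. Intervals are 95% and cover counting error only. Positions are from RefSeq, matched by symbol.

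Named features were the 3 with most reads in each name group and up to 5 called in each direction with the largest ratios and no overlap. Features with identical counts in all 6 libraries were to be given once. Copies with nearly equal counts, such as 5S-862 and 5S-870, were each named and are not distinct signals. Other rRNA features were named after their values were seen, and not all of them are marked so where they appear. Members and lists were chosen with earlier results of these data known. Alternatives were other filters, scalings and pseudocounts, DESeq2 1.42.0, limma 3.58.1, a replicate block, all 6 libraries together, identical features once and each crosslinked library left out. Same-numbered libraries correlated by 0.111 in their deviations from group means over all features and by 0.0062 over rRNA features.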

Additional observations from a re-analysis of the deposited data

How the results depend on the processing

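The 137 higher and 46 lower rRNA calls became 0 and 0 with no filter, where 942601 features were tested, no feature was called by edgeR and the lowest adjusted p was 0.132; at an unadjusted p under 0.05, 303 rRNA features were higher and 65 lower there. Leaving out 1 crosslinked library gave 126 to 147 higher and 41 to 44 lower calls, and the other settings 95 to 141 and 33 to 48. TMM factors moved the median log2 ratio of all features from -0.21 to -0.00. The replicate block gave 127 and 45 calls, left the n-R5s sum called (adjusted p = 0.0206) and ended the call of mtrRNA-Rnr1 (0.0738); the labels do not say that numbers pair libraries, LSU-rRNA_Hsa-84 (0.0527 without the block) passed with it (0.0356) as in 10 of 14 alternatives, and no other feature or group among the 54 given this fit changed its call. Library sizes without rRNA also ended the call of mtrRNA-Rnr1 (0.0563).

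The n-R5s sum stayed at a log2 ratio of 1.72 but was not called with no filter (adjusted p = 0.147), and stood at 1.64 to 1.80 without 1 crosslinked library, so the number of groups called higher ran from 0 to 1. The number called lower was 1 with DESeq2 and with a filter at 5 RPM, where the 5S repeats stood at -1.14 and -1.35 (adjusted p = 0.00821 and 0.0138), and 0 to 1 over the left-out libraries, where Rnr1 ran from -1.48 to -0.86. The 5S repeats were called in 2 of 14 alternatives and the n-R5s sum in 11.

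Some uncalled ratios changed sign. The SSU sum became -0.025 both with unannotated reads in the library sizes and with limma, and SSU-rRNA_Hsa-18 -0.038 in both. With DESeq2, TMM factors and library sizes without rRNA, SSU-rRNA_Hsa-32 became 0.13, 0.12 and 0.028, and LSU-rRNA_Hsa-145 0.12, 0.11 and 0.012. Over the left-out libraries SSU-rRNA_Hsa-32 ran from -0.18 to 0.024, SSU-rRNA_Hsa-15 from -0.61 to 0.042 and LSU-rRNA_Hsa-145 from -0.33 to 0.10.

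Interactions of rRNA features called negative numbered 0 to 8 over the left-out libraries (0 to 128 over all tested features) and 0 with TMM factors, library sizes without rRNA or a filter at 5 RPM, where none of all features was called either. With TMM factors and with library sizes without rRNA, the group interactions turned to -0.51 and -0.23 for the 5S repeats, -0.55 and -0.27 for Rnr1, -0.31 and -0.030 for Rnr2, and -0.48 and -0.20 for SSU. Over the left-out libraries that of the n-R5s genes ran from -0.14 to 0.024 and that of Rnr1 from -0.31 to 0.32.

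The share ratio became 1.04 over annotated reads. The median crosslinked log2 ratio became 0.52 with a pseudocount of 5 RPM and 0.084 with no filter, and the non-crosslinked median 1.59 with 0.1 RPM, 0.67 with 5 RPM and 0.054 with no filter. Depth limits features with under 3 input reads to a wide interval.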
